A study of Schizosaccharomyces pombe with 4 samples.

Results

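The part read here is 3 of 3827 genes of the fission yeast Schizosaccharomyces pombe with at least 3 probes on a tiling array. These genes, trs130, vps1301 and gid2, lie inside chromosome arms. ON cells made the histone methyltransferase Clr4 in a form for tethering (TetR-Clr4), and differed from OFF cells in thiamine and tetracycline as well. Domains over trs130 and vps1301 carried less new histone H3 in ON than in OFF cells, in both genotypes. The gid2 domain did so in wt alone. Over coding spans, 64 of all genes (1.67%) were at least 1.5-fold lower in wt, 30 (0.784%) in clr3-CDx2 and 10 (0.261%) in both. The vps1301 gene was in none of these groups, and trs130 and gid2 were in the wt group alone. All 3 genes were taken by position from earlier results of the same arrays. The domain of trs130 is chromosome III, 1824301 to 1827360, that of vps1301 is chromosome II, 3794101 to 3797160, and that of gid2 is chromosome II, 2043901 to 2045160, in the coordinates of the array, and 3 kb on either side was read with each. The values that chose them were the differences between the ON and OFF arrays, in both genotypes for trs130 and vps1301 and in wt alone for gid2. Those differences are therefore given as a description with no test. The coding spans lay 626 kb (trs130), 741 kb (vps1301) and 2043 kb (gid2) from the nearer chromosome end.

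New H3 was marked by a tag exchange. All cells carried cdc25-22, a temperature-sensitive allele of the mitotic phosphatase gene that the growth protocol spells with its numbers swapped, and an H3 gene whose HA tag was replaced by a T7 tag through Cre recombinase. Cultures grown at 26 °C were arrested at G2/M by 4 h at 36 °C, given 1 µM β-estradiol for 2 h to start the exchange, and fixed in 1% formaldehyde. H3-T7 chromatin, sheared to about 1000 bp, was immunoprecipitated and its DNA labelled with Cy5, against input DNA of the whole-cell extract in Cy3. The 4 groups were wt and clr3-CDx2, each in the OFF and the ON state, with 1 array per group. In ON cells TetR-Clr4 was made from a thiamine-repressible promoter over 20 generations in medium without thiamine, in cells with a tetO-ade6+ reporter. OFF cells went through the same steps with 5 µg/ml thiamine and 2.5 µg/ml tetracycline, so tethering, thiamine and tetracycline changed together and their parts cannot be told apart. The nature of CDx2, the place of tetO-ade6+ in the genome and the number of cultures behind an array were not stated in the labels.

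Each probe has 60 bases, with 1 probe every 300 bp. A level here is the log2 ratio of processed Cy5 to Cy3 signal minus the array median, so 0 is the median of an array, and a mean ± SD over a domain is over its probes, which are not replicates. A difference is called at least 1.5-fold where it passes 0.585 on this log2 scale. Median signals were 4442 to 7688 units in Cy5 and 7066 to 13925 in Cy3, against local backgrounds of 54 to 64 and 37 to 43 units. Probes not well above background numbered 0 to 5 on an array, and none was saturated. The spread of all probes (median absolute deviation) was 0.26 and 0.27 on the OFF arrays and 0.32 and 0.33 on the ON arrays. Per the file headers the scanner software had detrended Cy3 on all 4 arrays but Cy5 on the OFF arrays alone, so this step moves with the tethering state. Without detrending the wt difference at vps1301 was -0.89, as with it, and that at gid2 was -1.23 in place of -1.15.

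Nucleosomes are taken apart and rebuilt as polymerases and remodellers pass, and outside S phase the entry of a newly made, tagged H3 reports that exchange. Clr4 methylates H3 at lysine 9, and Clr3 is the histone deacetylase of the SHREC complex, both best known from heterochromatin at centromeres, telomeres and the silent mating-type locus. The 3 genes lie in none of these places and serve membrane traffic and protein turnover. Trs130 is a subunit of the TRAPP II complex, which activates Rab GTPases in Golgi traffic. Vps13 proteins are long, rod-shaped carriers that move lipids between membranes at contact sites, and vps1301 encodes one of them. gid2 encodes a RING subunit of the GID ubiquitin ligase, which in budding yeast marks gluconeogenic enzymes for destruction when glucose returns.

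The upstream regions are printed because all 3 domains lie downstream of them, inside the genes, and both kinds of place were measured. Each sequence is the 250 bases before the annotated gene start in RefSeq assembly ASM294v3, 5′ to 3′ on the strand of the gene, with capitals marking TATAAA and runs of AAAAAAAA on either strand. The positions are chrIII:1823071-1823320 on the plus strand for trs130, chrII:3798746-3798995 on the minus strand for vps1301 and chrII:2043764-2044013 on the minus strand for gid2.
trs130: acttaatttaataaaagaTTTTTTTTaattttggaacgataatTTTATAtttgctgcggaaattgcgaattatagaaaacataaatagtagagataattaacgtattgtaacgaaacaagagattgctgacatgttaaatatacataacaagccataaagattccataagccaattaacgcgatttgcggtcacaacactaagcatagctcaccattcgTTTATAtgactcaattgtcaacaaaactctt
vps1301: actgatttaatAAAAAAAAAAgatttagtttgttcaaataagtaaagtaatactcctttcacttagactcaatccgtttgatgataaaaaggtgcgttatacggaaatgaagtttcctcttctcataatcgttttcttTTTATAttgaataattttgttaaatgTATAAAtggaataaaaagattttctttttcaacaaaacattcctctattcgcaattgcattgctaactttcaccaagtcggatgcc
gid2: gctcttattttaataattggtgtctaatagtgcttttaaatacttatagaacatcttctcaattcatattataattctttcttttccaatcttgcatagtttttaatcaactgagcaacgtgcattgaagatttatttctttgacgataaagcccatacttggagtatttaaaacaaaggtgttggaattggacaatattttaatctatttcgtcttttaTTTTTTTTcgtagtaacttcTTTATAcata

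TATAAA was found 2 times upstream of trs130, 2 times upstream of vps1301 and 1 time upstream of gid2, and it occurs in 44.4% of the same windows of 5112 genes. A run of AAAAAAAA on either strand stood upstream of each of the 3 genes and of 18.9% of all. The letters ATGACGT (1.47% of all), CAGTCACG (1.19%) and TTTCCGCT (0.411%) were in none of the 3 windows on either strand. The GC content of the windows was 29.2% for trs130, 28.0% for vps1301 and 26.8% for gid2. The windows were each read by 2 probes within 150 bp. At trs130 these gave -0.59 on wt OFF, -0.55 on clr3-CDx2 OFF, -0.99 on wt ON and -0.76 on clr3-CDx2 ON. At vps1301 they gave 0.02, 0.19, -0.52 and -0.49 in the same order, and at gid2 0.03, -0.17, -0.69 and -0.16. The wt ON array was the lowest at all 3, and at gid2 the other 3 arrays lay together.

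The build behind the array coordinates was not stated in the file headers. Genes were placed by sliding the input signal of each chromosome arm along the base composition of ASM294v3, which gave 1 clear shift for the right arm of chromosome II (correlation across probes 0.304, against at most 0.122 elsewhere) and for that of III (0.264 against 0.113). These shifts were -1658 bp and -802 bp. Windows of 100 and 200 kb around the 3 genes were searched only near those shifts, so they could not have found a distant one. Their weighted centres were -1651 to -1624 bp and -797 to -796 bp, with peaks at -1558 bp (vps1301), -1658 bp (gid2) and -702 bp (trs130). In a separate check at 112 tRNA genes, the mean ratio was lowest (-0.40) at -200 bp from this placing, against -0.37 at 0 bp. By this placing the trs130 domain covered 83.2% of the coding span of trs130 (SPCC285.14, chromosome III 1823374 to 1827049, plus strand, 5 coding exons), from 125 bp inside its start. The vps1301 domain covered 32.8% of the coding span of vps1301 (SPBC21C3.01C, chromosome II 3789386 to 3798703, minus strand, 3 coding exons). It lay in the middle of that span, 3201 bp from the coding start and 3057 bp from the coding end. The gid2 domain covered 79.2% of the coding span of gid2 (SPBC29A3.03C, chromosome II 2042507 to 2043763, minus strand, 2 coding exons) and ran 264 bp past its end, over the annotated 3′ untranslated region. Estimates of the shift ran from -860 to -702 bp for the right arm of chromosome III, so the 125 bp at trs130 is approximate. For that of chromosome II they ran from -1660 to -1558 bp, so the 264 bp at gid2 is approximate too. Gene coordinates are those of ASM294v3.

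**Figure D1:**
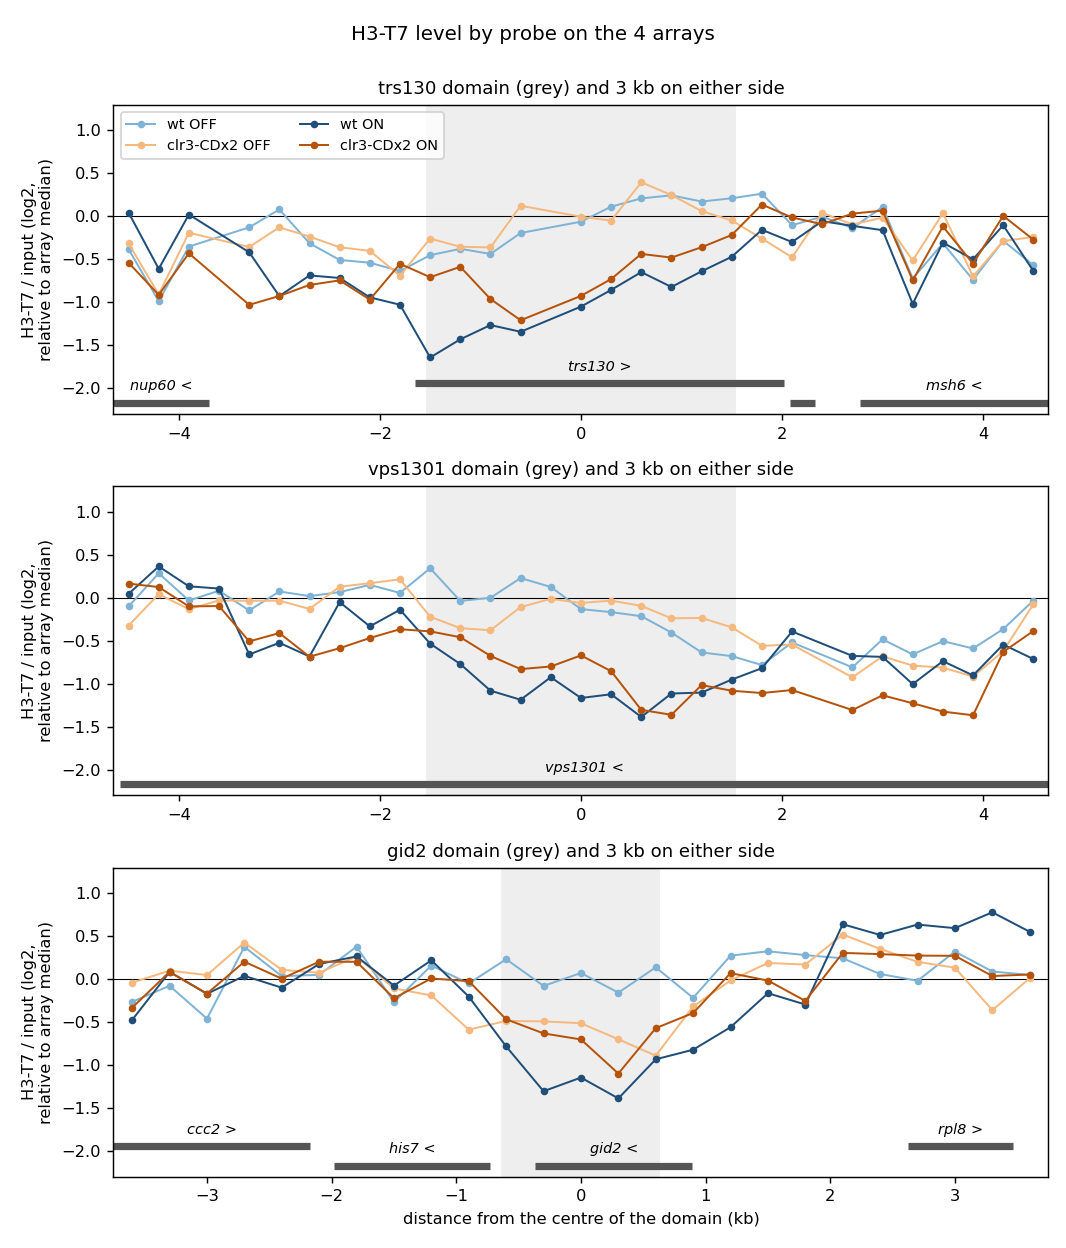
H3-T7 level of each probe (log2 of Cy5 over Cy3, relative to the array median) on the 4 arrays, against distance in kb from the centre of each domain, with coding spans as grey bars and an arrow head for the strand. In the trs130 and vps1301 domains both ON arrays lie below both OFF arrays on average, while in the gid2 domain wt OFF (mean 0.04) stands above the other 3 arrays (-0.62, -1.11 and -0.69).

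Over the trs130 domain new H3 was at the array median on both OFF arrays and well under it on both ON arrays. Its 10 probes averaged -0.06 ± 0.29 on wt OFF, -0.02 ± 0.25 on clr3-CDx2 OFF, -1.02 ± 0.39 on wt ON and -0.66 ± 0.31 on clr3-CDx2 ON. The wt difference, ON minus OFF, was -0.96 ± 0.16 (SD over probes), or 1.95-fold lower, and the clr3-CDx2 difference was -0.64 ± 0.35, or 1.56-fold lower. The clr3-CDx2 value fell short of 1.5-fold with normexp background correction (-0.57), with all arrays set to equal spread (-0.57) and over the whole coding span (-0.54). In wt all 10 probes were at least 1.5-fold lower (4.83% of all 40740 probes were), and in clr3-CDx2 6 of 10 were (4.73% of all). Because the rule used these differences, nothing is read from those counts. Of all runs of 10 neighbouring probes, 0.953% had a mean at least 1.5-fold lower in wt and 0.698% in clr3-CDx2.

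By the ratio, the trs130 loss was deepest near the 5′ end in wt and further inside the gene in clr3-CDx2. The lowest wt difference, -1.19, was at the first probe of the domain (1824301 to 1824360), where clr3-CDx2 gave -0.45. The lowest clr3-CDx2 difference, -1.33, was at 1825201 to 1825260, where wt gave -1.15. In Cy5 alone this second probe was the lowest in both genotypes, with -1.11 in wt and -1.33 in clr3-CDx2. The first probe of the domain gave -0.95 in wt Cy5 and 0.26 in wt Cy3. When the coding span was cut into 3 equal sections, the wt differences were -1.06, -0.94 and -0.75 from 5′ to 3′, and those of clr3-CDx2 were -0.65, -0.81 and -0.23. The probes just inside the edges gave -1.19 and -0.68 in wt, and those just outside -0.39 and -0.42. In clr3-CDx2 the run of probes at least 1.5-fold lower was 1824901 to 1826760, with 6 probes.

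Lower ratios also appeared upstream of trs130, in the stretch before the divergent gene nup60, which encodes a nucleoporin, but in wt they came with a higher input signal. At 3 kb before the domain centre (1822801 to 1822860) the level was 0.08 on wt OFF, -0.13 on clr3-CDx2 OFF and -0.93 on both ON arrays. The wt difference of -1.01 there was made of -0.14 in Cy5 and 0.88 in Cy3, and the clr3-CDx2 difference of -0.80 of -0.48 in Cy5 and 0.34 in Cy3. The probes on either side of it (1822501 and 1823101) gave 0.26 and 0.27 in wt Cy5 and 0.57 and 0.67 in wt Cy3. Over all 9 probes to the left of the domain, Cy5 differed by 0.02 ± 0.22 in wt and -0.29 ± 0.22 in clr3-CDx2. Over the coding span of nup60 itself (7 probes) the difference was 0.29 ± 0.10 in wt, with -0.20 in Cy3, and -0.10 ± 0.21 in clr3-CDx2. Downstream lies the ribosomal protein gene rps2802, whose single probe gave -0.20 in wt and 0.46 in clr3-CDx2. Over msh6, a mismatch repair gene (13 probes), it was 0.22 in wt, with -0.14 in Cy3, and 0.02 in clr3-CDx2. None of these neighbours was 1.5-fold lower in either genotype.

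Over the vps1301 domain the levels of 11 probes were -0.14 ± 0.33 on wt OFF, -0.19 ± 0.13 on clr3-CDx2 OFF, -1.03 ± 0.23 on wt ON and -0.86 ± 0.31 on clr3-CDx2 ON. Here too both ON arrays were low and both OFF arrays near the median. The wt difference was -0.89 ± 0.33 (1.85-fold lower) and the clr3-CDx2 difference -0.67 ± 0.36 (1.59-fold lower). The clr3-CDx2 value fell short of 1.5-fold with equal spread (-0.56), and both fell short over the whole coding span (-0.46 each). In wt 9 of 11 probes were at least 1.5-fold lower (4.83% of all probes were), and in clr3-CDx2 8 of 11 (4.73% of all). As at trs130, nothing is read from those counts. Of all runs of 11 neighbouring probes, 0.874% had such a mean in wt and 0.646% in clr3-CDx2.

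The vps1301 runs were offset from each other: 3794101 to 3796560 (9 probes) in wt and 3795001 to 3797160 (8 probes) in clr3-CDx2. At the left edge of the domain (3794101) wt gave -0.88 and clr3-CDx2 -0.17, and at the right edge (3797101) wt gave -0.27 and clr3-CDx2 -0.74. Since the gene is on the minus strand, the clr3-CDx2 run reached further toward the 5′ end. Just outside the left edge wt gave -0.20 and clr3-CDx2 -0.58, and just outside the right edge wt gave -0.04 and clr3-CDx2 -0.55. Over the 9 probes to the right of the domain the difference was -0.19 ± 0.25 in wt, with 7 of 9 below 0, and -0.40 ± 0.17 in clr3-CDx2, with 9 of 9 below 0. There clr3-CDx2 ON minus wt ON was -0.34 ± 0.32, below 0 in 8 of 9 probes.

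The vps1301 domain is the middle of a long gene, and the rule fixed that position. In the middle of 3 equal sections of the coding span (10 probes) the levels were -0.19 on both OFF arrays, -1.08 on wt ON and -0.91 on clr3-CDx2 ON. In the 5′ section (9 probes) they were -0.53 (wt) and -0.66 (clr3-CDx2) in OFF and -0.72 (wt) and -1.06 (clr3-CDx2) in ON, so that section was below the median on all 4 arrays. In the 3′ section (11 probes) they were 0.07 and -0.03 in OFF and -0.21 and -0.30 in ON. Over the whole coding span (30 probes) the difference was -0.46 ± 0.45 in wt and -0.46 ± 0.36 in clr3-CDx2, with 24 and 27 of 30 probes below 0. The only protein-coding gene within the window is vps1301 itself.

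**Figure D2:**
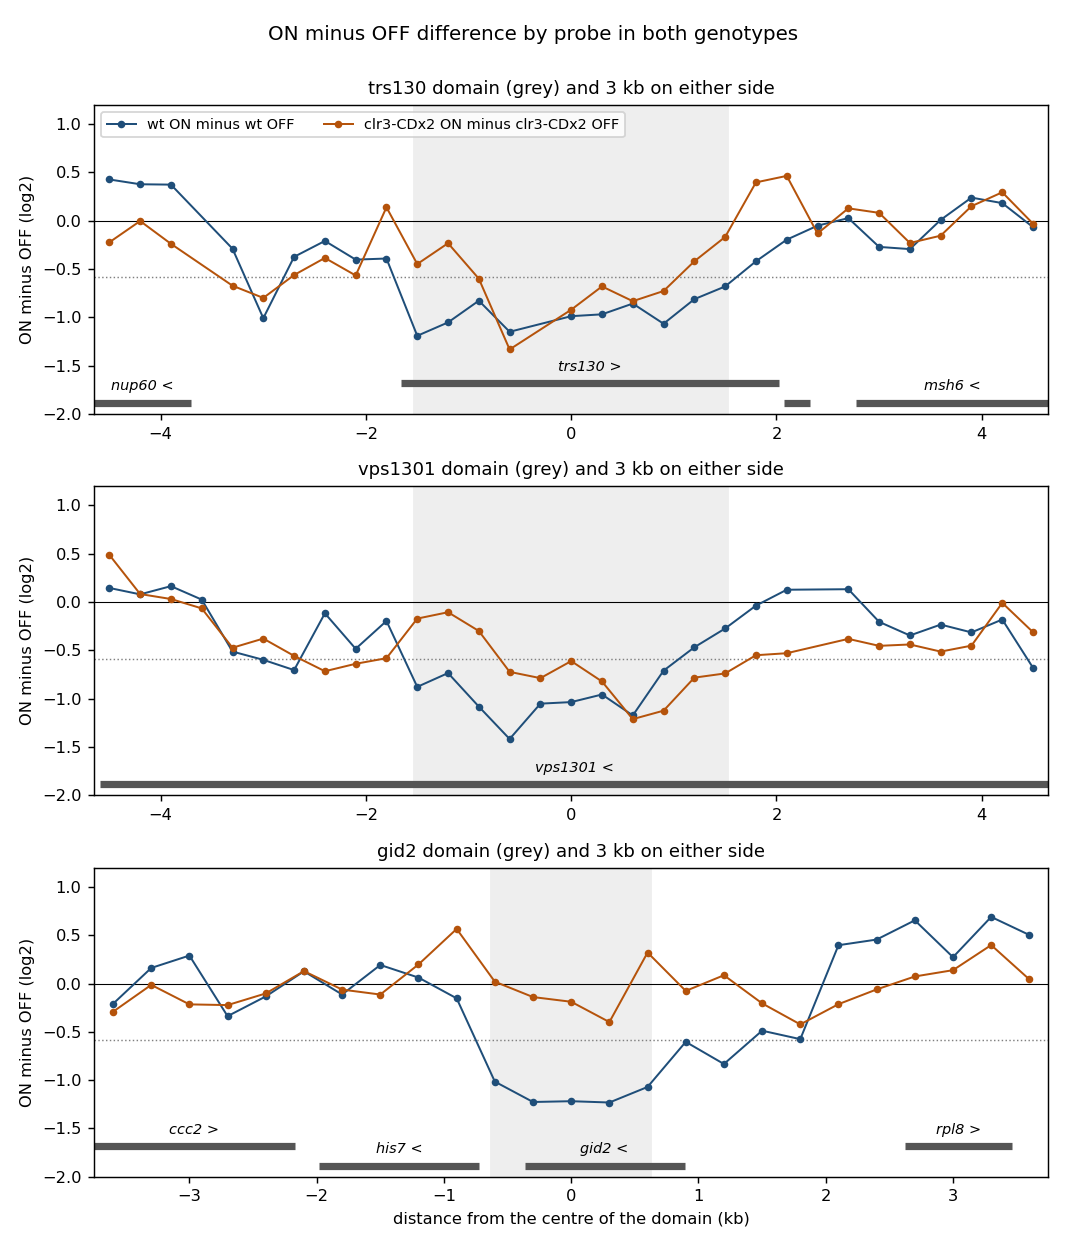
ON minus OFF difference of each probe (log2) in wt and clr3-CDx2 against distance in kb from the centre of each domain, with a dotted line at 1.5-fold lower. At trs130 and vps1301 both lines cross it inside the domain, and at gid2 the wt line does so over 7 neighbouring probes and the clr3-CDx2 line over none.

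Over the gid2 domain only wt OFF was near the array median. Its 5 probes averaged 0.04 ± 0.16 on wt OFF, -0.62 ± 0.18 on clr3-CDx2 OFF, -1.11 ± 0.25 on wt ON and -0.69 ± 0.24 on clr3-CDx2 ON. The wt difference was -1.15 ± 0.10 (2.22-fold lower), with 5 of 5 probes at least 1.5-fold lower. The clr3-CDx2 difference was -0.08 ± 0.27, with 0 of 5. Of all probes, 4.83% were this much lower in wt and 4.73% in clr3-CDx2. Since the rule used these differences, nothing is read from the counts. Of all runs of 5 neighbouring probes, 1.74% had a mean at least 1.5-fold lower in wt and 1.49% in clr3-CDx2.

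The clr3-CDx2 OFF array was itself low at gid2. In the OFF state the clr3-CDx2 minus wt difference was -0.66 ± 0.23, below 0 in 5 of 5 probes, and 3 of them were at least 1.5-fold lower (1.17% of all probes were). Without the first and last probe it was -0.51, short of 1.5-fold. Of all runs of 5 neighbouring probes, 0.167% had a mean at least 1.5-fold lower in this comparison. In the ON state the same difference was 0.42 ± 0.15, above 0 in 5 of 5 probes. The wt and clr3-CDx2 differences at gid2 thus stood 1.07 ± 0.20 apart, against 0.32 ± 0.31 at trs130 and 0.22 ± 0.47 at vps1301. The rule took gid2 for a loss in wt alone, and trs130 and vps1301 for a loss in both genotypes. This contrast of gaps was therefore set by the choice, and nothing is read from it. With 1 array per group no test of these gaps was possible. The wt OFF array enters both the wt difference and the OFF difference of genotypes, and wt ON enters both the wt difference and the ON difference.

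The gid2 loss had a sharp left edge and a graded right one. In wt the first probe inside the left edge gave -1.02 and the one just outside -0.15. On the right the last probe inside gave -1.07 and the next outside -0.60, and the run of probes at least 1.5-fold lower went on to 2045760, 7 probes in all. To the left, over his7, a histidine biosynthesis gene (4 probes), the difference was -0.00 in wt and 0.15 in clr3-CDx2. Over ccc2, which encodes a copper-transporting ATPase (9 probes), it was 0.04 and -0.22. To the right, past the snoRNA gene snoZ30, the wt difference was above 0 from 2.1 kb after the domain centre (0.40) onward. Over rpl8, a ribosomal protein gene that starts beyond that probe (3 probes), the level was 0.13 on wt OFF, -0.01 on clr3-CDx2 OFF, 0.67 on wt ON and 0.20 on clr3-CDx2 ON. The difference at rpl8 was 0.54 ± 0.23 in wt, with -0.18 in Cy3, and 0.20 ± 0.17 in clr3-CDx2.

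With the channels taken apart, the lower ratio lay mainly in the immunoprecipitated DNA. Each channel was centred on its own array median, so the parts need not add up exactly to the ratio. At trs130 the ON minus OFF difference of wt was -0.82 ± 0.20 in Cy5 and 0.16 ± 0.10 in Cy3, and that of clr3-CDx2 was -0.63 ± 0.35 in Cy5 and 0.03 ± 0.08 in Cy3. In plain units the mean Cy5 signal was 1054 on wt OFF and 586 on wt ON, and 1034 and 698 on the clr3-CDx2 arrays, while Cy3 stayed between 994 and 1080 on all 4. At vps1301 the difference was -0.72 ± 0.36 in Cy5 and 0.19 ± 0.15 in Cy3 in wt, and -0.69 ± 0.33 and -0.00 ± 0.05 in clr3-CDx2. The mean Cy5 signal was 1462 on wt OFF and 825 on wt ON, and 1366 and 878 on the clr3-CDx2 arrays, and Cy3 was 1497 to 1646. Both ON arrays were thus lower in Cy5 at both loci, and the Cy3 of wt ON was the highest of the 4.

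At gid2 the difference was -0.99 ± 0.09 in Cy5 and 0.18 ± 0.12 in Cy3 in wt, and -0.21 ± 0.30 and -0.11 ± 0.12 in clr3-CDx2. The mean Cy5 signal was 1197 on wt OFF, 779 on clr3-CDx2 OFF, 570 on wt ON and 708 on clr3-CDx2 ON, so wt OFF was the high array here as well. Between the OFF arrays, clr3-CDx2 minus wt was -0.57 ± 0.18 in Cy5 and 0.08 ± 0.13 in Cy3. In wt the input was higher in ON at all 3 loci, by a mean of 0.16 to 0.19, in 9 of 10, 9 of 11 and 4 of 5 probes.

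**Figure D3:**
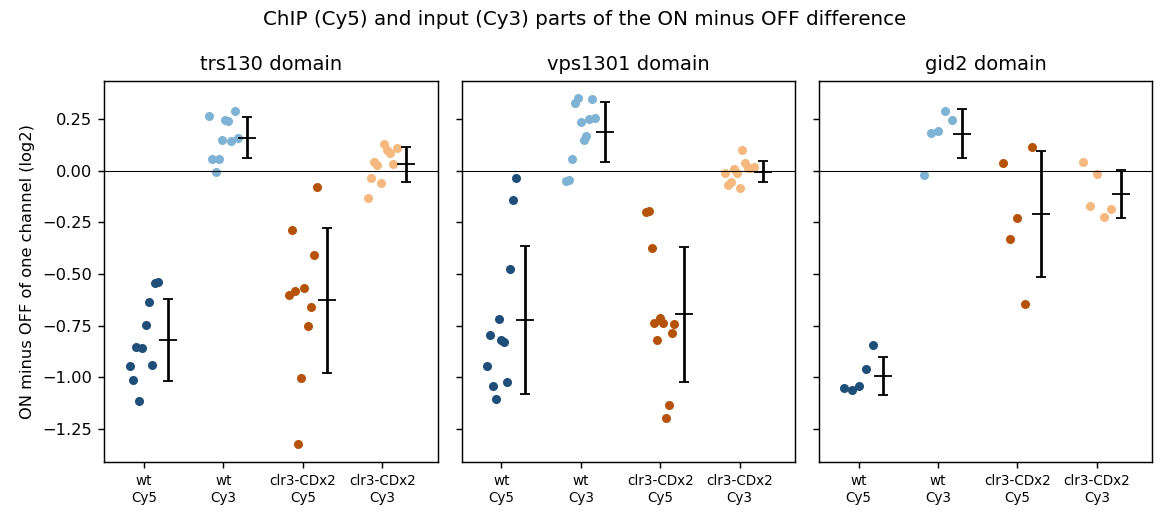
ON minus OFF of each channel (log2, each channel relative to its own array median) for every probe of the 3 domains, with mean and SD over probes in black. Cy5 is below 0 for all probes in wt, with means of -0.82, -0.72 and -0.99, while the wt Cy3 means lie between 0.16 and 0.19.

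The probes of the 3 domains were spread over rows 9 to 520 of 532. The meaning of the suffix R in some probe names was not stated. Probes with and without it gave -0.95 and -0.97 in wt at trs130, -0.82 and -0.97 at vps1301, and -1.23 and -1.10 at gid2. In clr3-CDx2 they gave -0.53 and -0.75 at trs130, -0.66 and -0.69 at vps1301, and -0.27 and 0.05 at gid2.

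Over coding spans, trs130 and gid2 were at least 1.5-fold lower in wt ON, and none of the 3 genes was in clr3-CDx2. Of all 3827 genes, 64 (1.67%) were this much lower in wt, 30 (0.784%) in clr3-CDx2 and 10 (0.261%) in both. In wt gid2 ranked 2nd lowest with -1.19 ± 0.08 (4 probes), trs130 7th with -0.91 ± 0.22 (11 probes) and vps1301 172nd. In clr3-CDx2 trs130 ranked 42nd with -0.54 ± 0.45, vps1301 92nd with -0.46 ± 0.36 and gid2 1116th with -0.10 ± 0.30. In the OFF comparison of genotypes gid2 ranked 7th lowest with -0.64 ± 0.27, where 16 genes (0.418%) were at least 1.5-fold lower. The rule used the ON minus OFF differences, and the wt OFF array enters the OFF comparison as well. Nothing is therefore read from these ranks. The medians of all genes were 0.01 in wt and 0.02 in clr3-CDx2, with SDs over genes of 0.29 and 0.26.

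**Figure D4:**
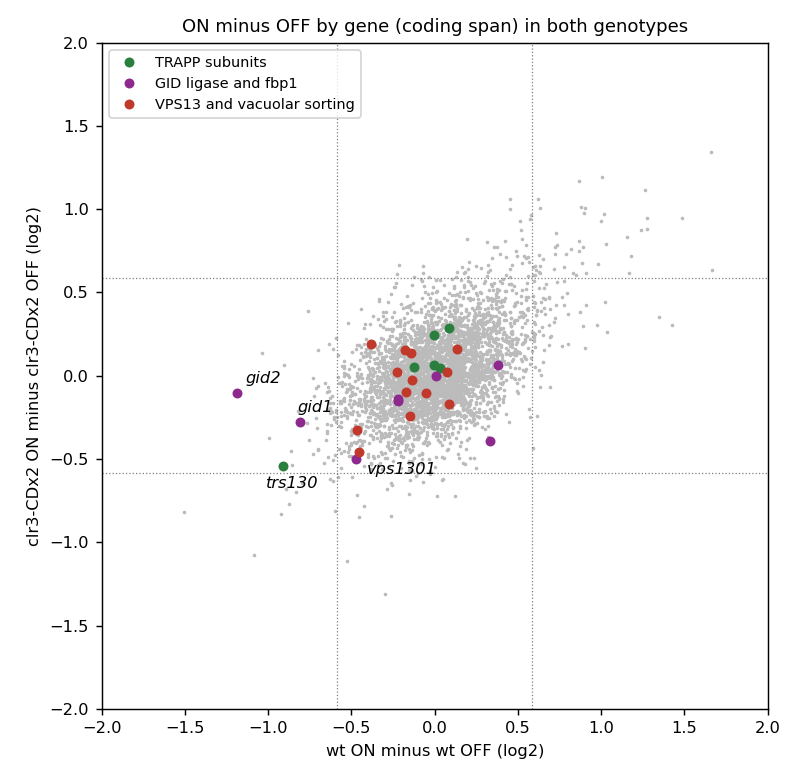
ON minus OFF (log2) of each gene's coding span in wt (x axis) and clr3-CDx2 (y axis), for 3827 genes in grey and 3 lists in colour, with dotted lines at 1.5-fold. gid2 lies at -1.19 and -0.10, trs130 at -0.91 and -0.54, vps1301 at -0.46 and -0.46, and gid1 at -0.81 and -0.28.

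The genotype effect over both tethering states was not among the differences that chose trs130 and vps1301. It was fitted with limma across all 3827 genes, with tethering state as a term and 1 residual degree of freedom per gene. That residual comes from the gap between the wt and clr3-CDx2 ON minus OFF differences. The choice drew on those differences, so the intervals and p-values are not independent of it. For trs130 the clr3-CDx2 minus wt effect was 0.17 (95% interval -0.13 to 0.46, mean -0.48 in wt and -0.32 in clr3-CDx2, limma with Benjamini-Hochberg adjustment, adjusted p = 0.782). For vps1301 it was -0.08 (95% interval -0.35 to 0.20, mean -0.42 in wt and -0.50 in clr3-CDx2, limma adjusted p = 0.915). Neither passed the threshold of 0.05, which does not show that the genotypes were alike. In the same fit 11 genes (0.287%) were higher in clr3-CDx2 and 2 (0.0523%) lower, and with all arrays set to equal spread the counts were 25 higher and 18 lower. With normexp they were 26 and 11. No gene was called without the term for tethering state, nor with at least 5 probes per gene (limma, 0 and 0 in both, against 43 higher and 84 lower, and 47 and 127, at an unadjusted p under 0.05). The gene gid2 was given no test, because it was chosen on wt alone and that choice bears on the genotype term. With 1 array per group, the p-values of the fit with tethering state do not measure the spread between replicate arrays. They set the genotype effect against the residual named above, pooled across genes. Any response to tethering that differs by genotype counts there as noise.

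Other subunits of the 3 machines were read from lists of textbook complexes. Of 10 TRAPP genes 6 had at least 3 probes. Apart from trs130, the other 5 (bet3, trs31, trs33, trs65 and trs120) lay between -0.13 and 0.08 in wt and between 0.04 and 0.29 in clr3-CDx2. Without trs130, which the rule chose for being lower, 0 of 5 were at least 1.5-fold lower in either genotype, against 1.67% of all genes in wt and 0.784% in clr3-CDx2. The medians of those 5 were -0.01 and 0.06.

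Of 12 genes of the GID ligase list, which includes fbp1, 8 were measured. Without gid2, which the rule chose for being lower, 1 of 7 (gid1) was at least 1.5-fold lower in wt and 0 of 7 in clr3-CDx2, against 1.67% and 0.784% of all genes. gid1 encodes a core subunit of the ligase. Its 5 probes averaged -0.21 on wt OFF, -0.33 on clr3-CDx2 OFF, -1.02 on wt ON and -0.61 on clr3-CDx2 ON, so both ON arrays were below both OFF arrays. Its difference was -0.81 ± 0.27 in wt and -0.28 ± 0.36 in clr3-CDx2. The others did not pass 1.5-fold: gid8 gave -0.47 in wt and -0.50 in clr3-CDx2, gid5 -0.22 and -0.15, gid7 -0.22 and -0.14, gid9 0.33 and -0.39, and gid10 0.38 and 0.07. fbp1, which encodes the gluconeogenic enzyme fructose-1,6-bisphosphatase, gave 0.01 and -0.00. The medians of those 7 were -0.22 in wt and -0.15 in clr3-CDx2.

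Of 14 genes for Vps13 proteins and vacuolar sorting 13 were measured. Without vps1301, which the rule chose for being lower, 0 of 12 were 1.5-fold lower or higher in either genotype. Of all genes, 1.67% were this much lower in wt and 0.784% in clr3-CDx2. The shares this much higher were 2.95% in wt and 2.46% in clr3-CDx2. The second Vps13 gene, vps1302, with 31 probes, gave 0.08 ± 0.33 in wt and 0.02 ± 0.22 in clr3-CDx2, against -0.46 in both for vps1301. The sorting receptor gene vps10 gave -0.47 in wt and -0.33 in clr3-CDx2. The medians of the 12 genes without vps1301 were -0.14 in wt and -0.00 in clr3-CDx2.

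The coding lengths were 3453 bp for trs130, 9216 bp for vps1301 and 1197 bp for gid2, against a median of 1407 bp over all genes. These are the 93.5th, 99.8th and 37.7th percentiles, so trs130 and vps1301 are long and gid2 is not. Their GC contents were 36.2%, 36.4% and 38.3%, all below the median of 39.7%. The nearest tRNA genes were 17.6, 15.4 and 10.3 kb away, against a median of 35.4 kb, and the nearest long terminal repeats 14.2, 75.0 and 29.9 kb, against 24.9 kb. Annotated antisense non-coding RNAs overlapped the coding spans of all 3, with 4 at trs130, 6 at vps1301 and 1 at gid2, as at least 1 does in 76.3% of all genes and at least 3 do in 7.87%. Those over the domains are SPNCRNA.7512, SPNCRNA.7513, SPNCRNA.7514 and SPNCRNA.7515 at trs130, SPNCRNA.1641, SPNCRNA.6286 and SPNCRNA.6287 at vps1301, and SPNCRNA.5463 at gid2. RNA was not measured.

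The genes with the most similar 4-array pattern were found by the distance between profiles after each gene's own mean was taken off. For trs130 the nearest was alx1, a BRO1 domain gene, at a distance of 0.070 against a median of 0.81 over all genes. It gave -0.86 in wt and -0.53 in clr3-CDx2, and was followed by SPCC61.04C, which encodes a Rab GTPase-binding protein (-0.86 and -0.45), SPBPB2B2.18, ubc14 and ftm1. Of these, SPBPB2B2.18 and ftm1, with 3 probes each, lie 36.1 and 29.8 kb from a chromosome end. For vps1301 the nearest was the cell wall glucanase gene agn1 (distance 0.032, median 0.51), with -0.47 in wt and -0.45 in clr3-CDx2, followed by sro7, mmm1, gem1 and rbm17. The genes mmm1 and gem1 encode subunits of ERMES, the tether between the endoplasmic reticulum and mitochondria, and gave -0.51 and -0.48 in wt and -0.48 and -0.40 in clr3-CDx2.

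No gene was as near to gid2. Its closest was pdc102, a pyruvate decarboxylase gene 24.6 kb from a chromosome end (distance 0.21, median 0.88), with 0.05 on wt OFF, -0.70 on clr3-CDx2 OFF, -0.98 on wt ON and -0.57 on clr3-CDx2 ON. It too had wt OFF as its single high array. Next came SPAC1687.21, which encodes a fructose-2,6-bisphosphatase, SPAC750.02C, SPBPB2B2.16C and aim19, with wt differences of -0.82, -0.77, -0.81 and -0.71. Of these, SPAC750.02C (4 probes) and SPBPB2B2.16C (3 probes) also lie near a chromosome end, at 17.5 and 40.4 kb. Between the members the distances were 0.41 for trs130 and vps1301, 0.45 for trs130 and gid2, and 0.58 for vps1301 and gid2.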

How the data were processed

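The arrays hold Cy5 (H3-T7 ChIP DNA) and Cy3 (input DNA) intensity per 60-mer probe. Per the file headers the authors extracted them with Agilent Feature Extraction 12.0.3.1, and the deposited processed intensity had its background subtracted and its dyes normalized array by array. The deposited series matrix holds the log2 ratio of Cy5 over Cy3 processed intensity, equal to that computed here for 100% of spots within 1e-06, with column medians of 0.059 to 0.093 and no further centring. Other deposited columns are flags of 0 or 1. Of 41551 non-control probes, the 531 with an outlier mark on at least 1 array were dropped. All 4 arrays lay on 1 slide.

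Log2 ratios were centred on each array's median and averaged over probes of a domain or coding span (at least 3 probes). limma 3.58.1 in R 4.3.3 fitted genotype and tethering state with a variance trend, tested on simulated data. The members and gene lists were chosen with earlier results of these data known. Named genes were the members, annotated genes within 3 kb, list genes at least 1.5-fold changed, and the 5 genes nearest each member in profile. The other list genes given with values were added after their values were seen. Alternatives were normexp (offset 50, on median signals, since mean signals were not used here), equal spread, no detrending, medians, trimmed edges, coding spans, probes without f or m suffix, and for limma a model without the tethering term, at least 5 probes per gene and no variance trend. Python 3.11.15 did the rest. With 1 array per group, agreement between replicates could not be measured, and the number of arrays limits the precision.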

Additional observations from a re-analysis of the deposited data

Results flagged for a closer look

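Several differences had opposite signs at the levels of the other factor, on single arrays, so that none was tested. In the gid2 domain clr3-CDx2 was below wt in the OFF state (-0.66) and above it in the ON state (0.42), a gap of 1.07. The choice of gid2 on wt alone favours such a gap. In the vps1301 domain the same differences were -0.05 and 0.17, a gap of 0.22, with SDs over probes of 0.32 and 0.23. By the median over probes they were 0.07 and 0.14, so the signs no longer differed. Over nup60 beside trs130, ON minus OFF was 0.29 in wt and -0.10 in clr3-CDx2, a gap of -0.40, which equals that of clr3-CDx2 minus wt between ON (-0.26) and OFF (0.14). Over msh6 the genotypes differed by 0.08 in the OFF state and -0.12 in the ON state, a gap of -0.20, with SDs over probes of 0.20 and 0.41. Over ccc2 ON minus OFF was 0.04 ± 0.22 in wt and -0.22 ± 0.16 in clr3-CDx2, a gap of -0.26. Over his7 it was -0.00 ± 0.16 and 0.15 ± 0.31, a gap of 0.15, with both values smaller than their SDs over probes.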

How the results depend on the processing

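No paired analysis was possible because each group is 1 array and no group has a second replicate to pair or leave out. Of 84 domain values under alternatives, 80 moved by less than the SD over probes and none of the called differences changed sign. Some fell short of 1.5-fold: the clr3-CDx2 difference at trs130 (normexp -0.57, equal spread -0.57, coding span -0.54) and vps1301 (equal spread -0.56, coding span -0.46), the wt difference at vps1301 over its coding span, and the OFF difference of genotypes at gid2 without its edge probes (-0.51). The 4 that moved were wt ON minus OFF with normexp, -1.30 at vps1301 and -1.30 at gid2, and, over the whole coding span of vps1301, wt ON minus OFF of -0.46 and clr3-CDx2 ON minus wt ON of -0.079, since that span holds 30 probes rather than 11. The wt difference ranged from -0.98 to -0.85 at trs130, -1.30 to -0.46 at vps1301 and -1.30 to -1.05 at gid2, and the clr3-CDx2 difference from -0.72 to -0.54, -0.79 to -0.46 and -0.24 to 0.05. The OFF difference of genotypes at gid2 ranged from -0.83 to -0.51. Counts of genes by limma were 26 higher and 11 lower with normexp, and 25 and 18 with equal spread. They were 0 and 0 without the term for tethering state (43 and 84 at an unadjusted p under 0.05) and 0 and 0 with at least 5 probes per gene (47 and 127), and the cause was not tested. Neither trs130 nor vps1301 passed under any of the 5 limma alternatives. The number of arrays limits all of these values.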
